A study of Mus musculus with 6 samples.

Results

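The macrophage and neutrophil genes of cultured mouse bone marrow stromal cells were taken from a list of 50 symbols, of which 47 were present among the 12830 genes of the deposited count table and are described here. Marco, Retnlg and Ly6g were not analysed here. The members were divided by role into 7 genes of leukocytes in general, 14 macrophage genes, the 3 chains of complement C1q, 16 surface receptors with their adaptors, and 7 neutrophil genes, of which 5 encode granule proteins and 2 the calprotectin subunits. RNA had been sequenced from primary bone marrow stromal cells (BMSCs), the adherent marrow cells that can form bone and fat, after 2 days of osteogenic induction. The CKO group held 3 libraries of cells from 8-week-old Prx1;Rras2f/f mice, and the Rras2FF group held 3 libraries of cells from Rras2f/f mice of the same age. Both groups therefore carried the floxed Rras2 allele and received the same induction. Prx1 is a promoter active in limb mesenchyme, from which limb bone and its stroma arise, whereas blood cells come from another lineage. The labels do not give the recombinase, the sex of the mice, or whether each library had a mouse of its own. The p-values therefore measure only how these libraries vary, which may be technical.

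Macrophages in marrow derive from blood-forming stem cells, adhere to culture plastic and clear dying cells and debris. They sense microbes and immune complexes through lectins, scavenger receptors and Fc receptors, several of which signal through the adaptor chains encoded by Tyrobp and Fcer1g. Neutrophils fill their granules with antimicrobial proteins while they mature in marrow, so the mRNAs of granule proteins mark marrow precursors.

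Rras2, the targeted gene, served to check the labels. It encodes the small GTPase TC21 and lies at chr7:114046782-114117781 on the minus strand (mm10). Rras2 had 26.7, 29.0 and 26.8 CPM in the CKO libraries, against 49.7, 50.1 and 44.7 CPM in the Rras2FF libraries. The CKO libraries were all lower, by 1.75-fold on average (log2 fold change -0.81 ± 0.0683 SE, edgeR adjusted p = 1.08e-05). Library totals over the listed genes ran from 31934714 to 37561452 counts, and the lowest count of any member in any library was 434. CPM below are counts divided by library sizes that TMM factors had adjusted, a gene passed the test at an edgeR quasi-likelihood adjusted p below 0.05, and fold changes are CKO over Rras2FF.

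Macrophage transcripts were among the most abundant in these cultures when set per length. Lyz2, which encodes lysozyme, had the highest FPKM of all 12830 genes, with a mean of 11406 over the 6 libraries. Apoe, a lipid carrier that macrophages secrete and other cells also make, was next with 6136 FPKM. The lysosomal protease gene Ctss had 1079.8 FPKM, C1qb had 943 FPKM and Gpnmb, listed here with the macrophage genes, had 799.7 FPKM. Which cells of the cultures made these transcripts was not measured. In all, 9 members were among the 100 genes of highest FPKM, and 46 of the 47 lay above the median of 9.45 FPKM over the table. The exception was Cd163, the scavenger receptor for haemoglobin bound to haptoglobin, with 5.81 FPKM. Down the order of mean FPKM, 35 of the 46 neighbouring pairs had overlapping values over the libraries and 11 did not, and 6 of those 11 gaps separated the 7 highest members from each other.

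Markers of the stromal label were also present, at uneven levels. Of 11 stroma genes Cxcl12 had 1510.0 FPKM, Col1a1 1045 FPKM and Prrx1, the gene of the Prx1 protein, 41.6 FPKM. All 11 were measured, and the lowest of them had 0.694 FPKM. Of markers of other blood lineages, 0 of 4 erythroid genes were in the table, and of 6 dendritic cell genes 2 were, the higher being Zbtb46 at 1.32 FPKM. Of 13 T, B, NK and plasma cell genes 6 were measured, the highest being Igkc at 129 FPKM, and of 7 mast cell and megakaryocyte genes 4 were, the highest being Ppbp at 37.6 FPKM.

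**Figure D1:**
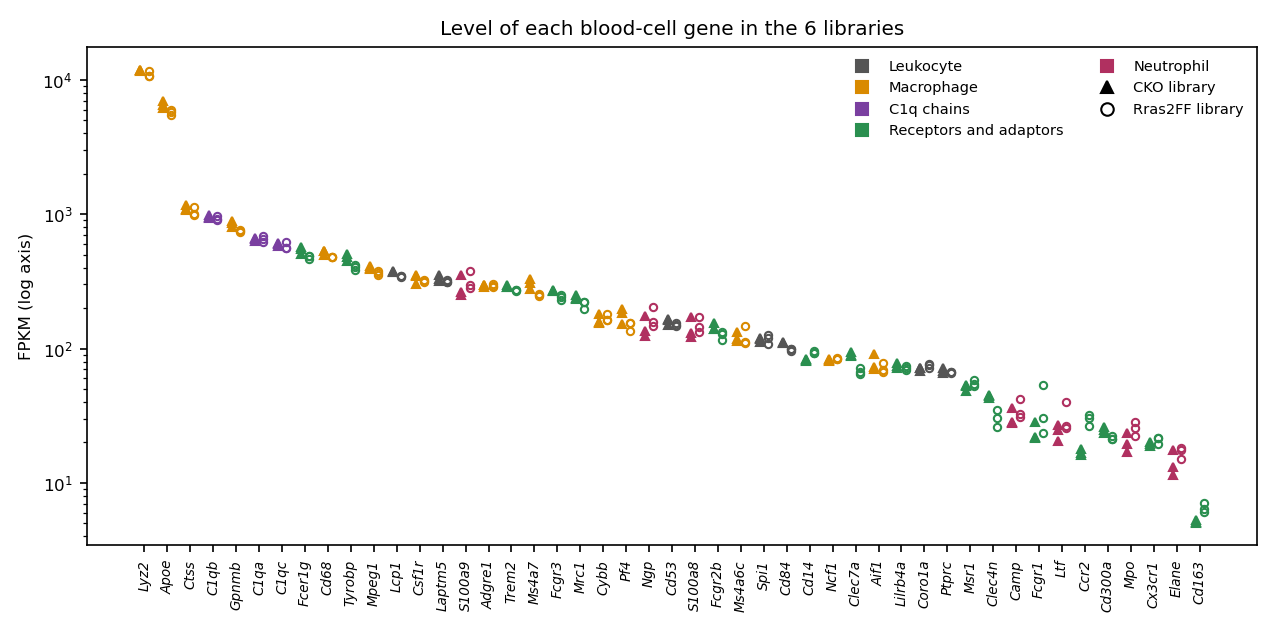
FPKM of the 47 members (log axis) in each library, triangles for the 3 CKO libraries and open circles for the 3 Rras2FF libraries, in falling order of the mean and coloured by class. Lyz2 and Apoe stand apart at the top with 11406 and 6136 FPKM on average, and Cd163 is last with 5.81 FPKM.

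Of the 47 members, 10 were higher in CKO and 3 were lower, and 34 did not pass. That is 21.3% higher and 6.38% lower, where 2.10% of all tested genes were higher and 2.74% were lower. The members and their classes were chosen with earlier results of these data known, so these shares are a description and not independent evidence of a shift. The calls were uneven over the roles, with 10 of the 13 among the receptors and their adaptors. By the groups alone, 16 members had every CKO library above every Rras2FF library and 4 had every CKO library below, which is 34.0% and 8.51% of the members against 11.3% and 11.2% of all genes. The shares of all genes were not matched for level, and 46 of the 47 members lay above the median FPKM of the table. The median log2 fold change was 0.06 over the members and 0.001 over all genes, and 30 members had a positive value. On the same counts DESeq2 called 14 members higher and 4 lower, where it called 2.76% and 3.85% of all genes, and limma-voom called 8 higher and 3 lower against 1.38% and 2.00%. Every called change was small, the largest called ones being 1.47-fold higher and 1.44-fold lower. In bulk RNA, more cells of a type and more RNA per cell cannot be told apart.

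The members together took 5.07, 4.95 and 5.22% of the listed counts in CKO replicates 1 to 3, against 4.71, 4.58 and 4.73% in Rras2FF replicates 1 to 3. The share was higher in each CKO library than in every Rras2FF library. Lyz2 and Apoe, which did not pass singly, held 27195 of the 50805 CPM in CKO and 63.7% of the difference between the group means. Without them the share was 2.37, 2.31 and 2.41% in CKO against 2.26, 2.19 and 2.18% in Rras2FF, again apart. Summed CPM of the 11 stroma genes was 17911, 17586 and 16132 in the CKO libraries, against 21337, 20298 and 20138 in the Rras2FF libraries. Here 2 genes rose, among them Cxcl12 (0.47, adjusted p = 9.98e-05), and 4 fell, among them Col1a1 (-0.59, adjusted p = 0.000584) and Col1a2 (-0.44, adjusted p = 0.000734), in log2 by edgeR. The 7 osteoblast genes summed to 2280.0, 1982 and 1658 CPM in CKO against 2951, 2923 and 2836 CPM in Rras2FF, and edgeR called 1 of them lower, Runx2 (-0.25, edgeR adjusted p = 0.0128). DESeq2 and limma-voom each called 5 of the 7 osteoblast genes lower, 6 had an unadjusted p under 0.05 by edgeR, and 6 had every CKO library below every Rras2FF library. Of all 12830 genes, 1130 were lower and 1096 higher at an unadjusted p under 0.05 by edgeR. Among the stroma genes Lepr also rose and Dcn and Lum also fell, and the edgeR adjusted p of Runx2 was 0.0538 without CKO replicate 2, 0.0632 without CKO replicate 3 and 0.074 without Rras2FF replicate 3. The stroma and osteoblast sums were thus lower in all 3 CKO libraries, and their part in the higher share of the members was not tested.

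**Figure D2:**
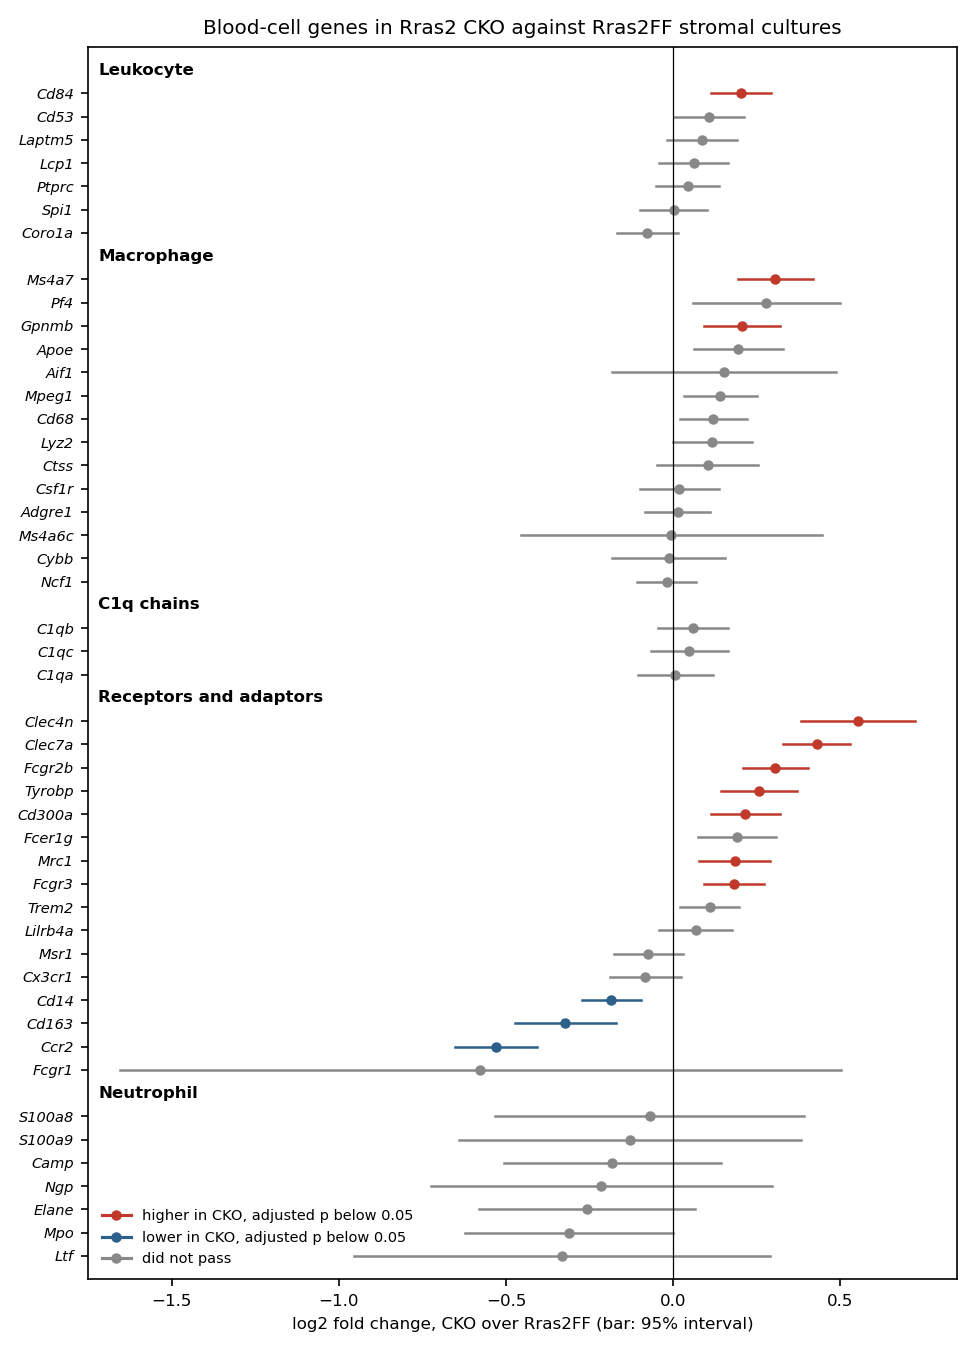
Log2 fold change of each member, CKO over Rras2FF, by class, with bars for the 95% interval of the edgeR fit (3 CKO and 3 Rras2FF libraries). The 10 red members are higher and the 3 blue ones lower in CKO, and 10 of these 13 are receptors and adaptors.

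Of the 7 genes that white blood cells share 1 passed and 6 did not. The geometric mean of the 7 leukocyte genes was 387, 378 and 391.8 CPM in CKO against 378, 362 and 369.7 CPM in Rras2FF, a ratio of means of 1.04. CKO replicate 2 and Rras2FF replicate 1 had the same value to 3 digits. Lcp1 had 1509, 1379 and 1466 CPM in the CKO libraries, against 1419, 1360.4 and 1394 CPM in the Rras2FF libraries. Laptm5 stood at 999, 910.3 and 955 CPM in the CKO libraries, against 935, 877 and 886 CPM in the Rras2FF libraries. Lcp1 encodes the actin bundler L-plastin and Laptm5 a lysosomal membrane protein of blood cells, and neither passed (log2 fold changes 0.06 and 0.09, edgeR adjusted p = 0.579 and 0.4). Ptprc, the CD45 phosphatase of white blood cells, had a log2 fold change of 0.04 (95% interval -0.05 to 0.14), and Spi1, the gene of the macrophage transcription factor PU.1, 0.002 (-0.10 to 0.10). Cd53, a tetraspanin, stood at 0.11 (edgeR adjusted p = 0.262) and Coro1a, an actin regulator, at -0.08 (0.388). Cd84, a receptor of the SLAM family, was the exception. Cd84 had 329, 330.2 and 343 CPM in the CKO libraries, against 298, 284 and 289.8 CPM in the Rras2FF libraries. All 3 CKO libraries were higher, by 1.15-fold (log2 fold change 0.20 ± 0.0419 SE, edgeR adjusted p = 0.0114), but the adjusted p was 0.0585 without CKO replicate 3, 0.0954 without Rras2FF replicate 2 and 0.0575 without Rras2FF replicate 3.

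Of the 14 macrophage genes 2 rose, Ms4a7 and Gpnmb, and 0 fell. Ms4a7 had 348, 375 and 407 CPM in the CKO libraries, against 305, 303 and 305 CPM in the Rras2FF libraries. Ms4a7 encodes a membrane protein of the MS4A family found on macrophages, and the lowest CKO library lay above all Rras2FF libraries (log2 fold change 0.31 ± 0.0523 SE, edgeR adjusted p = 0.00319). Gpnmb had 3563, 3213 and 3493 CPM in the CKO libraries, against 3031, 2987 and 2885 CPM in the Rras2FF libraries. The groups did not overlap and the fold was 1.15 (log2 fold change 0.21 ± 0.0527 SE, edgeR adjusted p = 0.0373). The call rested on all libraries but CKO replicates 1 and 2, since the edgeR adjusted p was 0.134 without CKO replicate 3, 0.0676 without Rras2FF replicate 1, 0.152 without Rras2FF replicate 2 and 0.158 without Rras2FF replicate 3. It was 0.0524 by limma-voom and 0.0992 without robust estimation.

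Apoe, Lyz2, Cd68 and Mpeg1 also had every CKO library above every Rras2FF library without passing the test. Apoe had 10009, 9430.1 and 10741 CPM in the CKO libraries, against 9253, 8320.4 and 8778 CPM in the Rras2FF libraries (log2 fold change 0.20, edgeR adjusted p = 0.0985). Lyz2 had 17036, 16929.8 and 17437 CPM in the CKO libraries, against 15563, 15299 and 16540.4 CPM in the Rras2FF libraries (0.12, edgeR adjusted p = 0.293). Mpeg1, the gene of the pore-forming protein perforin-2, was next. Mpeg1 had 1882, 1858 and 1986 CPM in the CKO libraries, against 1820.0, 1654 and 1715 CPM in the Rras2FF libraries (0.14, edgeR adjusted p = 0.151). In these 3 genes the gap between the groups was smaller than the range within either group. Pf4, a chemokine of platelets that marrow macrophages also make, overlapped between the groups by its lowest CKO library. Pf4 had 98.8, 126 and 121 CPM in the CKO libraries, against 88.8, 97.4 and 99.0 CPM in the Rras2FF libraries (0.28, edgeR adjusted p = 0.177). DESeq2, run on the same counts, passed Apoe (adjusted p = 0.00822), Pf4 (0.0116) and Mpeg1 (0.0489).

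A pair of genes widely used to define mouse macrophages did not pass. Adgre1, which encodes F4/80, had a log2 fold change of 0.01 (95% interval -0.08 to 0.11, edgeR adjusted p = 0.922). Csf1r, the receptor of the growth factor that macrophages need to live, had 0.02 (-0.10 to 0.14, edgeR adjusted p = 0.911). Both intervals exclude a change of 1.25-fold, and in all 22 of the 34 members that did not pass had such an interval. Csf1r overlaps Hmgxb3 and Ncf1 overlaps Gtf2ird2, each on the opposite strand. Cybb and Ncf1, subunits of the phagocyte oxidase, had -0.01 and -0.02. Ctss at 0.10, Cd68, the gene of macrosialin, at 0.12 and Aif1, which encodes the calcium-binding protein IBA1, at 0.15 did not pass either, nor did Ms4a6c, a paralog of Ms4a7 that lies 133 kb from it on chromosome 19, at -0.005.

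The C1q chains, which macrophages make for the first step of the classical complement pathway, were abundant and did not pass. C1qb had 1167, 1139 and 1142 CPM in the CKO libraries, against 1169.6, 1076 and 1063 CPM in the Rras2FF libraries. C1qa had 743, 719 and 773 CPM in the CKO libraries, against 794, 729.9 and 700.2 CPM in the Rras2FF libraries. C1qc had 805, 765 and 798 CPM in the CKO libraries, against 829, 725 and 734 CPM in the Rras2FF libraries. Rras2FF replicate 1 was the highest library for all 3 chains, and the groups overlapped. Their log2 fold changes were 0.06 for C1qb, 0.01 for C1qa and 0.05 for C1qc, with edgeR adjusted p = 0.589, 0.965 and 0.713, and 0 of 3 had an unadjusted p under 0.05. DESeq2 and limma-voom also called 0. The 3 genes lie within a cluster on chromosome 4, with 2.85 kb between C1qa and C1qc and 3.62 kb between C1qc and C1qb.

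The receptors moved in both directions, with 7 of 16 measured higher in CKO and 3 lower. The largest rises were in a pair of C-type lectins that sense fungal cell walls, Clec4n, which encodes dectin-2, and Clec7a, which encodes dectin-1. Clec4n had 56.8, 59.2 and 60.6 CPM in the CKO libraries, against 35.4, 45.3 and 39.7 CPM in the Rras2FF libraries. Every CKO library exceeded every Rras2FF library, with means of 58.9 ± 1.93 CPM in CKO against 40.1 ± 4.97 CPM in Rras2FF (SD, n = 3 each), 1.47-fold apart (log2 fold change 0.55 ± 0.0793 SE, edgeR adjusted p = 0.00116). Clec7a had 182, 187 and 194 CPM in the CKO libraries, against 134, 137 and 146 CPM in the Rras2FF libraries. The gap between the groups was wider than the spread within either, and the means were 1.35-fold apart (log2 fold change 0.43 ± 0.0470 SE, edgeR adjusted p = 0.000105). Mrc1, a lectin receptor for mannose that takes up glycoproteins, rose by a smaller margin. Mrc1 had 1385, 1465 and 1426 CPM in the CKO libraries, against 1180.1, 1297 and 1285 CPM in the Rras2FF libraries (log2 fold change 0.18 ± 0.05 SE, edgeR adjusted p = 0.0486). Its groups did not overlap, and its adjusted p by edgeR was 0.178 without CKO replicate 2, 0.133 without CKO replicate 3, 0.208 without Rras2FF replicate 1, 0.114 without Rras2FF replicate 2 and 0.105 without Rras2FF replicate 3. It was also 0.0537 with upper-quartile factors, 0.0606 with library totals alone, 0.07 by limma-voom and 0.101 without robust estimation.

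Of the 3 IgG receptor genes among the members Fcgr2b and Fcgr3 rose and Fcgr1 did not pass, and the adaptor Tyrobp and the receptor Cd300a rose. Fcgr2b, the inhibitory receptor for IgG, rose in all 3 CKO libraries. Fcgr2b had 346, 368 and 358 CPM in the CKO libraries, against 275, 298 and 294 CPM in the Rras2FF libraries (log2 fold change 0.31 ± 0.0458 SE, edgeR adjusted p = 0.00121). Fcgr3, an activating IgG receptor, had a tight CKO group. Fcgr3 had 397, 394 and 399.7 CPM in the CKO libraries, against 340.3, 346 and 362 CPM in the Rras2FF libraries (log2 fold change 0.18 ± 0.0419 SE, edgeR adjusted p = 0.0212). The 2 genes lie 74.6 kb apart on chromosome 1 and their extracellular parts are alike in sequence, so reads could be shared between them. Fcer1g lies 165 kb from Fcgr3. Cd84, called higher above, is on the same chromosome at chr1:171839697-171890718, where Fcgr3 is at chr1:171051174-171064935. Whether position plays a part in these changes was not tested. Tyrobp encodes DAP12, the adaptor of Trem2 and other receptors. Tyrobp had 278, 299 and 319 CPM in the CKO libraries, against 255, 237 and 257 CPM in the Rras2FF libraries (log2 fold change 0.26 ± 0.0531 SE, edgeR adjusted p = 0.011). Cd300a encodes an inhibitory receptor for lipids of dying cells. Cd300a had 132, 121 and 128 CPM in the CKO libraries, against 110.1, 105 and 112 CPM in the Rras2FF libraries (log2 fold change 0.22 ± 0.0482 SE, edgeR adjusted p = 0.0186). No CKO library overlapped the Rras2FF libraries in Fcgr2b, Fcgr3, Tyrobp or Cd300a. Fcgr2b passed whichever library was left out, whereas the edgeR adjusted p of Fcgr3 was 0.0615 without CKO replicate 2, 0.0781 without CKO replicate 3, 0.113 without Rras2FF replicate 1 and 0.125 without Rras2FF replicate 2. That of Tyrobp was 0.0615 without CKO replicate 2, 0.0568 without CKO replicate 3 and 0.0976 without Rras2FF replicate 2, and that of Cd300a was 0.0701 without CKO replicate 3, 0.0507 without Rras2FF replicate 1 and 0.127 without Rras2FF replicate 2.

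The partner chain Fcer1g and the remaining receptors did not pass by edgeR. Fcer1g encodes the signalling chain that Fc receptors and dectin-2 use. Fcer1g had 373, 409.8 and 430.2 CPM in the CKO libraries, against 368, 337 and 357 CPM in the Rras2FF libraries (0.19, edgeR adjusted p = 0.0611, DESeq2 adjusted p = 0.0167). The groups did not overlap, but the lowest CKO library lay close to the highest Rras2FF library. Trem2, the lipid receptor that signals through DAP12, had 0.11 (edgeR adjusted p = 0.168), with its groups apart. Lilrb4a, an inhibitory receptor, had 0.07, Msr1, a scavenger receptor, -0.07 and Cx3cr1, the fractalkine receptor, -0.08, and none of them passed.

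**Figure D3:**
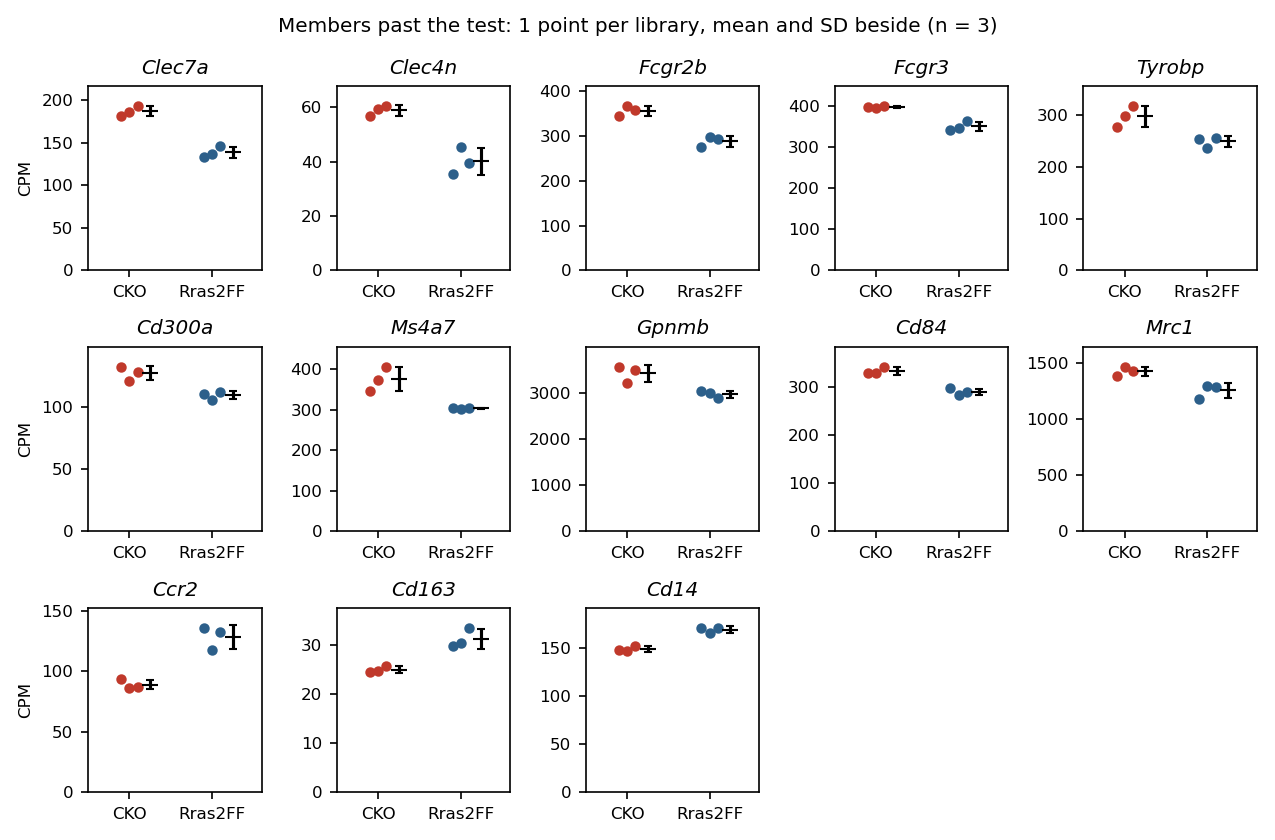
CPM of the 13 members that passed the test, 1 point per library, with the mean and SD beside (n = 3 each), CKO in red on the left and Rras2FF in blue on the right. The groups do not overlap in any panel, and Clec7a, Clec4n and Ccr2 show the widest gaps relative to their level.

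Ccr2, the receptor that draws inflammatory monocytes out of marrow towards the chemokine CCL2, fell in CKO. Ccr2 had 93.4, 86.3 and 87.0 CPM in the CKO libraries, against 136, 117 and 132 CPM in the Rras2FF libraries. The highest CKO library was below the lowest Rras2FF library, with means of 88.9 ± 3.88 CPM in CKO against 128 ± 9.73 CPM in Rras2FF (SD, n = 3 each), 1.44-fold lower (log2 fold change -0.53 ± 0.0576 SE, edgeR adjusted p = 0.000105). Cd163 fell as well. Cd163 had 24.5, 24.7 and 25.9 CPM in the CKO libraries, against 29.7, 30.5 and 33.6 CPM in the Rras2FF libraries (log2 fold change -0.32 ± 0.0703 SE, edgeR adjusted p = 0.0159). Cd14, the co-receptor that hands bacterial lipopolysaccharide to TLR4, fell by the smallest margin. Cd14 had 147, 146 and 152 CPM in the CKO libraries, against 171, 165 and 171 CPM in the Rras2FF libraries (log2 fold change -0.18 ± 0.0416 SE, edgeR adjusted p = 0.0198). Within each group the Cd14 libraries lay close together, and the groups did not overlap for either gene. The edgeR adjusted p of Cd163 was 0.0692 without CKO replicate 2, 0.0696 without Rras2FF replicate 2 and 0.0962 without Rras2FF replicate 3, and that of Cd14 was 0.0784 without CKO replicate 2, 0.0778 without Rras2FF replicate 1, 0.0704 without Rras2FF replicate 2 and 0.0924 without Rras2FF replicate 3. Ccr2 passed whichever library was left out.

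Fcgr1, the high-affinity IgG receptor, had the most negative fitted value of all members and did not pass. Fcgr1 had 61.1, 61.0 and 81.7 CPM in the CKO libraries, against 154, 84.0 and 65.7 CPM in the Rras2FF libraries (log2 fold change -0.58 ± 0.394 SE, edgeR adjusted p = 0.567). Rras2FF replicate 1 stood far above the other 5 libraries. Without it the log2 fold change was -0.14 and the edgeR adjusted p was 0.85. A list of 10 interferon-stimulated genes, chosen after the Fcgr1 values were seen, summed to 286, 239.8 and 479.7 CPM in CKO against 1598, 482 and 298 CPM in Rras2FF, again highest in Rras2FF replicate 1. Ifit3 of that list had 16.7, 12.2 and 37.4 CPM in CKO against 238, 38.8 and 17.8 CPM in Rras2FF. By edgeR, DESeq2 and limma-voom 0 of the 10 passed, all 10 had negative log2 fold changes, and 0 had an unadjusted p under 0.05.

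The members were also set against the 7 leukocyte genes of the same library. Each CPM was divided by the geometric mean CPM of those genes, which include Cd84, 1 of the members that rose. For Clec7a the ratio was 0.470, 0.493 and 0.494 in the CKO libraries, against 0.353, 0.379 and 0.396 in the Rras2FF libraries, and the mean ratio was 1.29-fold of that in Rras2FF. For Ccr2 it was 0.241, 0.228 and 0.222 in the CKO libraries, against 0.359, 0.324 and 0.357 in the Rras2FF libraries, or 0.665-fold. Clec4n stood at 1.41-fold, Fcgr2b at 1.19-fold and Ms4a7 at 1.19-fold, whereas C1qa stood at 0.964-fold and Csf1r at 0.972-fold, with overlapping groups. Adgre1 stood at 0.968-fold, with every CKO ratio below every Rras2FF ratio. Cd14 stood at 0.844-fold and Cd163 at 0.766-fold. Over all 47 members the CKO ratios lay above every Rras2FF ratio for 13 and below every one for 7, against 16 and 4 on CPM. The share of all genes apart on this ratio was not computed, so these counts have no background to be read against. The divisor was 1.04-fold higher in CKO on average, which lowers the CKO ratio of any gene. Coro1a, Adgre1, Ncf1 and Msr1, which did not pass the test, were among the 7, and Mrc1, which passed, no longer had its groups apart. Coro1a, like Cd84, is itself part of the divisor, so its ratio is partly set against itself. Since 1 number per library divides all genes, these ratios shift every member alike, and they are a description with no test.

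**Figure D4:**
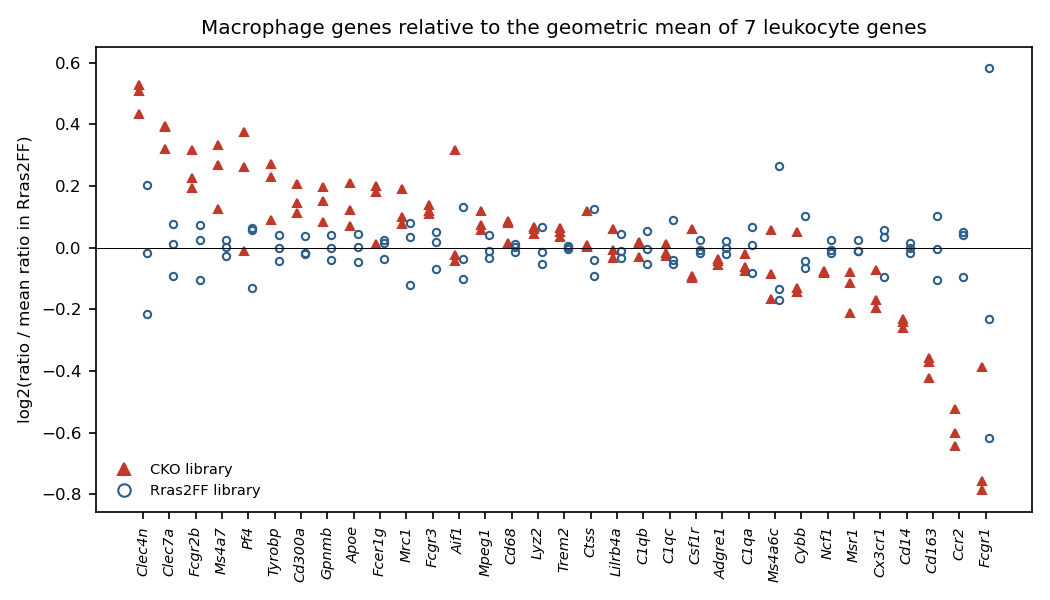
Each macrophage, C1q and receptor member as log2 of its ratio to the geometric mean of the 7 leukocyte genes, relative to the mean ratio in Rras2FF, triangles for CKO libraries and open circles for Rras2FF libraries. Clec4n and Clec7a lie at the upper end, Cd14, Cd163 and Ccr2 at the lower end with the groups apart, and Fcgr1 is last with the Rras2FF libraries widely scattered.

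Promoter sequences are shown for 4 of the 5 members whose calls held under all 15 alternative settings, 3 that rose and 1 that fell. Clec4n, the fifth, had no entry in the table used. The windows are the 250 bases before the annotated start in RefSeq on GRCm38.p6, namely chr6:129472780-129473029 on the minus strand for Clec7a, chr1:170976072-170976321 on the minus strand for Fcgr2b, chr19:11336147-11336396 on the minus strand for Ms4a7 and chr9:124101933-124102182 on the plus strand for Ccr2. By GENCODE M21, which gives the other positions here, the Fcgr2b window lies inside the gene over all 250 bases and the Ccr2 window over 233, since the annotated starts differ, whereas those of Clec7a and Ms4a7 lie outside. The windows are written 5′ to 3′ on the strand of the gene, and capitals mark GGAA or its reverse complement TTCC, the core that ETS-family factors such as PU.1 bind.
Clec7a: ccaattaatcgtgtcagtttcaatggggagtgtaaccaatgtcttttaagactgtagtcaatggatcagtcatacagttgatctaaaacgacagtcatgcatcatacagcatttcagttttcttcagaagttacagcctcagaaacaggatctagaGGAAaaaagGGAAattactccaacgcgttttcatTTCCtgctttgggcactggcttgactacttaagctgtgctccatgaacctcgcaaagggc
Fcgr2b: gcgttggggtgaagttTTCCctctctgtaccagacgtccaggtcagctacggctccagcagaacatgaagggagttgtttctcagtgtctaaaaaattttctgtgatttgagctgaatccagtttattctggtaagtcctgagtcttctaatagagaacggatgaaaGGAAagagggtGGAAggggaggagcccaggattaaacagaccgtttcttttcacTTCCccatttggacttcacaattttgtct
Ms4a7: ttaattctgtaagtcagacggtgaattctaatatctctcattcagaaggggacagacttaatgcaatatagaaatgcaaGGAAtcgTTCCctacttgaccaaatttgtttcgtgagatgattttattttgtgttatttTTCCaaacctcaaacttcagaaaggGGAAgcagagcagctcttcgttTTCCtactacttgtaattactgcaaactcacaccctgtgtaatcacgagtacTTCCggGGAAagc
Ccr2: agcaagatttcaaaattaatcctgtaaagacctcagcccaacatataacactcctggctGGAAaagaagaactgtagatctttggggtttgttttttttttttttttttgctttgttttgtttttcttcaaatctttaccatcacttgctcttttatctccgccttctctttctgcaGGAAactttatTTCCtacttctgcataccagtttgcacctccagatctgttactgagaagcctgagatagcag

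Clec7a held 3 such cores, Fcgr2b 4, Ms4a7 7 and Ccr2 3. The core was found in all 31 matched members outside the neutrophil class, but also in 93.2% of the 9829 matched genes of the table, so it sets them little apart. The longer form GAGGAA, or TTCCTC on the other strand, of which every match also holds the core, was found in 16 of those 31 members (51.6%) and 4 of 7 neutrophil members (57.1%), against 2213 of the 9829 genes (22.5%) and 6252 of all 27025 RefSeq promoters (23.1%). Among the 4 promoters shown Clec7a had 1 match to it and the others had 0. It was present in 4 of 8 matched members that rose and in 0 of 2 that fell. In all, 38 of the 47 members were matched. A match is a description of these letters and not a measured site.

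The 7 neutrophil genes had negative log2 fold changes, from -0.33 to -0.07 with a median of -0.21, and 0 passed by edgeR, where the smallest adjusted p was 0.287. At an unadjusted p under 0.05 by edgeR 1 was lower, where 1130 of all 12830 genes were lower. DESeq2 called 1 lower, and limma-voom called 0. S100a9 and S100a8 encode the subunits of calprotectin, a calcium-binding protein of neutrophil cytosol. S100a9 had 141, 198 and 149.5 CPM in the CKO libraries, against 162, 208 and 165 CPM in the Rras2FF libraries. S100a8 had 64.9, 91.7 and 70.0 CPM in the CKO libraries, against 71.7, 90.4 and 75.7 CPM in the Rras2FF libraries. Replicate 2 was the highest of its group for both genes. Ngp encodes neutrophilic granule protein. Ngp had 182, 232 and 169 CPM in the CKO libraries, against 201, 267 and 208 CPM in the Rras2FF libraries. Mpo, the gene of myeloperoxidase, was the one DESeq2 called. Mpo had 57.3, 68.2 and 50.6 CPM in the CKO libraries, against 66.2, 81.0 and 71.4 CPM in the Rras2FF libraries (-0.31, edgeR adjusted p = 0.287, DESeq2 adjusted p = 0.0199). For Mpo, CKO replicate 2 lay inside the Rras2FF range, and without it the edgeR adjusted p was 0.042. Of the 15 alternative settings Mpo passed in 3, and its edgeR adjusted p reached 0.501 among them. Camp, which encodes the antimicrobial cathelicidin, had -0.18, Elane, which encodes neutrophil elastase, -0.26 and Ltf, which encodes lactoferrin, -0.33, in log2.

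Summed over the 7 genes, the level was 555, 721 and 539 CPM in the CKO libraries, against 622, 819 and 643 CPM in the Rras2FF libraries. For all 7, replicate 2 was the highest library within the CKO group and also within the Rras2FF group, and CKO replicates 1 and 3 were below every Rras2FF library. The library order thus differed from that of the other 40 members, among which Rras2FF replicate 2 was the lowest library for 17 and the highest for 0. At this spread the 95% interval of S100a9 ran from -0.64 to 0.38 and that of Ltf from -0.96 to 0.29 in log2. A fall as large as that of Ccr2 (-0.53) lay inside both intervals. Rises as large as those of Clec7a (0.43) and Clec4n (0.55) lay above both. These intervals came from the fit without a replicate block, so the shared order of the replicates counted as spread. With the block Ngp and Mpo passed as lower (edgeR adjusted p = 0.0124 and 0.012) and the other neutrophil genes did not. The replicate numbers were not taken as pairs.

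**Figure D5:**
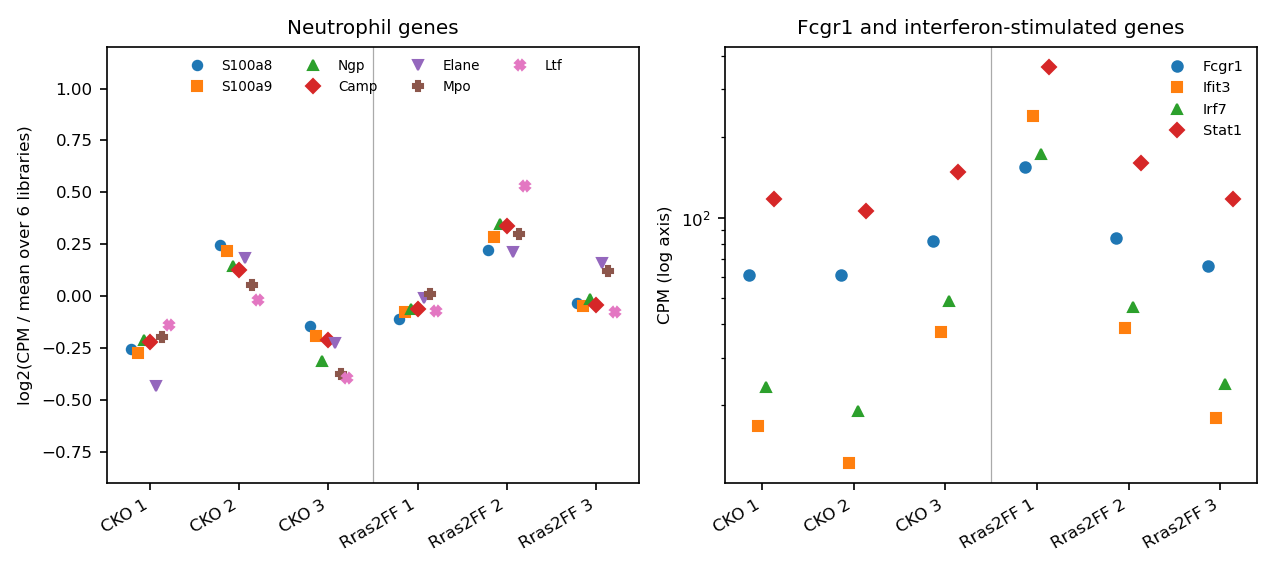
Left, log2 of the CPM of the 7 neutrophil genes over their mean of 6 libraries. Right, CPM (log axis) of Fcgr1 and 3 interferon-stimulated genes, with CKO libraries left of the line and Rras2FF libraries right of it. Replicate 2 is the highest of its group for every neutrophil gene, and Rras2FF replicate 1 is the highest library for all 4 genes on the right.

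Other genes of the same cells and pathways were counted in further lists, read against the 2.10% and 2.74% of all genes called higher and lower. Counts at an unadjusted p under 0.05 by edgeR are read against 1096 higher and 1130 lower of all 12830 genes. Among 20 other macrophage surface and lysosome genes 5 rose and 0 fell. They included Clec4d, a lectin that pairs with dectin-2, at 148 ± 8.40 CPM in CKO against 117 ± 7.51 CPM in Rras2FF (SD, n = 3 each; edgeR adjusted p = 0.00212). Slc11a1, the metal transporter of phagosomes, had 0.24 in log2 (edgeR adjusted p = 0.00634) and Cd200r1, an inhibitory receptor, 0.31 (0.012). Cd200r1 was not called without CKO replicate 2 (0.0828), CKO replicate 3 (0.0569) or Rras2FF replicate 2 (0.0672), by edgeR adjusted p. Lgals3, the gene of galectin-3, had 0.22 (edgeR adjusted p = 0.0209) and Fabp5, a fatty acid carrier, 0.24 (0.0232). For Lgals3 the adjusted p was 0.108 without CKO replicate 3, 0.152 without Rras2FF replicate 2 and 0.087 without Rras2FF replicate 3, and for Fabp5 it was 0.1 without CKO replicate 2, 0.106 without CKO replicate 3, 0.143 without Rras2FF replicate 2 and 0.105 without Rras2FF replicate 3. Of 14 complement genes other than C1q, 1 rose and 1 fell. At an unadjusted p under 0.05 by edgeR 5 were higher and 1 lower. The groups were apart for 42.9% upward and 7.14% downward, against 11.3% and 11.2% of all genes. Itgax, the CD11c chain of a complement receptor, rose to 41.6 ± 4.13 CPM in CKO against 29.97 ± 3.09 CPM in Rras2FF (SD, n = 3 each; edgeR adjusted p = 0.00764). Vsig4, a complement receptor of resident macrophages, fell to 7.73 ± 0.432 CPM in CKO against 12.8 ± 0.740 CPM in Rras2FF (SD, n = 3 each; edgeR adjusted p = 0.000921). Both passed whichever library was left out.

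Few signalling parts below the receptors passed. Of 14 immune adaptor and kinase genes 0 passed by edgeR, DESeq2 or limma-voom, while 2 had an unadjusted p under 0.05. Among them Syk, the kinase that dectin-1 and Fc receptors activate, had 0.16 (edgeR adjusted p = 0.0762), and Fyb, an adaptor, had the highest mean at 108 FPKM (0.06 in log2). Of 12 Toll-like receptors and partners 1 rose, Tlr1 (0.20 in log2, edgeR adjusted p = 0.0409), which passed of the fits with 1 library left out only that without CKO replicate 1. Of 12 myeloid transcription factors 0 passed by the 3 tools, 2 having an unadjusted p under 0.05, and Cebpa, the most abundant, had 0.05. Of the 5 genes of the colony-stimulating factor axis 0 passed by the 3 tools, again 2 having an unadjusted p under 0.05, and Csf1, the ligand of Csf1r that stroma makes, had -0.02 (edgeR adjusted p = 0.875).

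Lists for related cells were also mixed. Of 9 measured resident macrophage genes 1 rose, Hmox1, the haem-degrading enzyme (0.18, edgeR adjusted p = 0.0452), with 0.0767 without CKO replicate 2, 0.113 without CKO replicate 3, 0.187 without Rras2FF replicate 1 and 0.241 without Rras2FF replicate 2. DESeq2 called 3 of the 9 higher and 1 lower, where it called 2.76% and 3.85% of all genes, and limma-voom called 0. The groups were apart for 44.4% upward and 22.2% downward, against 11.3% and 11.2% of all genes. Of 6 monocyte genes 1 fell, Plac8 (-0.50, edgeR adjusted p = 0.0201), with 0.0504 without CKO replicate 2 and 0.0969 without Rras2FF replicate 1. Of 10 osteoclast genes, which mark the bone-resorbing cells that form from macrophage precursors, 1 rose, Atp6v0d2, a proton pump subunit (0.48, edgeR adjusted p = 0.000129), and it passed whichever library was left out. All 10 had positive log2 fold changes, where 6436 of all 12830 genes did, and 1 had an unadjusted p under 0.05 by edgeR. Of 6 measured T, B, NK and plasma cell genes 4 rose, led by the antibody genes Igkc at 95.1 ± 1.27 CPM in CKO against 55.5 ± 1.99 CPM in Rras2FF (SD, n = 3 each) and Jchain at 21.03 ± 1.72 CPM in CKO against 10.6 ± 1.18 CPM in Rras2FF (SD, n = 3 each), with edgeR adjusted p = 7.39e-07 and 7.46e-05. The third, Ighm, had 0.73 in log2 (edgeR adjusted p = 0.0241) and lost its call without CKO replicate 2 or without any 1 of the Rras2FF libraries, at adjusted p up to 0.100. The remaining gene, Cd4, which some macrophages also express, had 0.36 (edgeR adjusted p = 0.0309), and its adjusted p was 0.12 without CKO replicate 2, 0.0526 without Rras2FF replicate 1, 0.0794 without Rras2FF replicate 2 and 0.126 without Rras2FF replicate 3. Of 13 measured other neutrophil genes 0 passed by edgeR, DESeq2 or limma-voom and 3 had an unadjusted p under 0.05. The most abundant by FPKM was Hp, the gene of haptoglobin, at -0.07. Without robust estimation the edgeR adjusted p was 0.0515 for Cd200r1, 0.0591 for Lgals3, 0.0723 for Fabp5, 0.0559 for Tlr1, 0.0884 for Hmox1, 0.0624 for Plac8 and 0.0642 for Cd4. By limma-voom it was 0.0683 for Fabp5, 0.0863 for Hmox1, 0.0649 for Plac8 and 0.0625 for Cd4.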

How the data were processed

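RNA was sequenced from 6 libraries, 3 CKO and 3 Rras2FF, made with a stranded mRNA kit per the labels' protocols. Per the submitters' processing notes, mm10 was the genome. Which aligner and counter were run, and with which strand setting, is not given in the labels or headers used here. The authors deposited gene counts that were not normalized, per the file headers, and beside them FPKM values, which scale for length and library size. The FPKM of a gene did not keep a fixed ratio to its CPM over the libraries. Ccr2 had 16.9 FPKM in CKO against 29.6 FPKM in Rras2FF on average, where its mean CPM were 88.9 and 128. The authors' deposited log2 fold changes and p-values, per the file headers, were used only for a check: DESeq2 1.42.0 run here called the same 848 genes. The lowest mean count of a listed gene was 22.3, so genes below it are not analysed here.

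The test on counts was that of edgeR 4.0.16 under R 4.3.3 (TMM scaling, filterByExpr, robust quasi-likelihood F test, no covariates), with Benjamini-Hochberg adjustment over all 12830 genes and calls at an adjusted p below 0.05. The filter removed 0 genes. The procedure was tested on simulated data. CPM were scaled with TMM factors, and intervals are 95% intervals of the edgeR fit. FPKM were used only to compare levels between genes. Coordinates are from GENCODE M21 on mm10, and promoters from RefSeq on GRCm38.p6. Values in every library are given for members that passed edgeR or another tool, for members of non-overlapping groups with a log2 fold change of at least 0.2 in size, and for the 2 members of highest FPKM in each class. In the further lists up to 3 called genes, or else the most abundant gene, are named, where 5 or fewer passed the others are named too, and Syk and Prrx1 were named beyond that after their values were seen. A further list is not reported here. Members, classes and lists were chosen with earlier results of these data known. Alternatives were RLE, upper-quartile and total-count scaling, other filters, DESeq2, limma-voom (limma 3.58.1), the replicate number as a block, no robust estimation and each library left out.

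Of the members, 13 overlap another annotated gene, among them Coro1a, Csf1r, Ncf1, Cx3cr1 and Lilrb4a, which overlap a gene of the table, so their reads may not be told apart without the strand setting. Lyz2 and Lyz1, Fcgr2b and Fcgr3, and Lilrb4a and its paralog are alike in sequence. No library pair agreed within sampling noise, the chi-square per degree of freedom being 7.77 to 43.5.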

Additional observations from a re-analysis of the deposited data

How the results depend on the processing

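The count of all called genes was 621, and it was 399 without robust estimation and between 268 and 1166 when 1 library was left out, the highest being without CKO replicate 1. Of the members 10 were called higher and 3 lower. Leaving out 1 library gave between 4 and 13 members higher and between 1 and 3 lower, with 4 higher without CKO replicate 3 or Rras2FF replicate 2, and 13 higher without CKO replicate 1. Other scalings, filters, DESeq2, limma-voom and no robust estimation gave 8 to 14 higher and 3 or 4 lower. With 2 libraries in a group the fit rests on few residual degrees of freedom. Of the 13 calls 5 held under all 15 alternatives (Clec7a, Clec4n, Fcgr2b, Ms4a7 and Ccr2), no call reversed, and 7 of the 34 other members passed somewhere.

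Replicate numbers are shared between the groups, but deviations of same-numbered libraries correlated at -0.04, 0.09 and -0.10 for numbers 1, 2 and 3, and not every library correlated best with its own number, so the numbers were not taken as pairs. With a replicate block 669 genes were called, and 12 members were higher and 5 lower, the added ones being Apoe and Pf4 (higher, edgeR adjusted p = 0.0463 and 0.00791) and Mpo and Ngp (lower, 0.012 and 0.0124). Tlr1 and Fabp5, outside the members, did not pass with it (0.0539 and 0.0573). Every member had at least 434 counts in each library. Over all genes no library pair agreed within sampling noise, but for single members counting error was not separated from the variation between libraries.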

Other observations

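The genes of antigen presentation by MHC class II, which activated macrophages and dendritic cells raise, did not pass. Of 7 genes 0 were called by edgeR, DESeq2 or limma-voom, and 0 had an unadjusted p under 0.05. Cd74, the invariant chain and the most abundant of them, had 344, 278 and 358 CPM in the CKO libraries, against 352, 271 and 314 CPM in the Rras2FF libraries, so the groups overlapped (log2 fold change 0.07, edgeR adjusted p = 0.881). Replicate 2 was the lowest of its group in both. Of 2 measured dendritic cell genes 0 passed by the 3 tools or at an unadjusted p under 0.05.

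Of 4 measured mast cell and megakaryocyte genes 0 passed by edgeR or limma-voom, and DESeq2 called 1 lower, Kit (adjusted p = 0.0394), also the only one with an unadjusted p under 0.05. Ppbp, a platelet chemokine and the most abundant of the 4 by FPKM, had 41.1, 57.1 and 42.7 CPM in the CKO libraries, against 39.8, 43.1 and 44.1 CPM in the Rras2FF libraries. The groups overlapped, with CKO replicate 2 the highest, as it was for Pf4.

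Lyz1, the paralog of Lyz2 and a gene named after its values were seen, had 186, 21.4 and 26.3 CPM in CKO replicates 1 to 3, against 23.9, 18.6 and 35.6 CPM in Rras2FF replicates 1 to 3. A single library, CKO replicate 1, stood far above the others, and the gene did not pass (log2 fold change 1.58, edgeR adjusted p = 0.563). Lyz2 was not raised in that library beyond the other CKO libraries.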
